A study of Homo sapiens with 6 samples.

Results

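The genes described here are the complete rows of the deposited expression table whose symbols belong to the families HSPA, HSPB, HSPD, HSPE, HSPH and HSP90, DNAJA to DNAJC, CCT/TCP1, prefoldin, BAG, FKBP, cyclophilins PPIA to PPIH, PDIA, the heat shock factors, calreticulin, HYOU1 and a few named co-chaperones, without HSPA5, PDIA4 and HSPG2. The rule found 88 of 13707 genes. Among the 88 was no HSPD gene, and the HSPE family was represented by the readthrough transcript HSPE1-MOB4 alone. The chaperonin subunit CCT8 was not among them either. Other genes of these families were not analysed here. By main location, assigned from textbook knowledge, 56 act in the cytosol or nucleus, 16 in the ER and 7 in mitochondria, and 9 have another or no assigned place. Of the 88, 78 had enough reads to be tested. The other 10 are CCT8L2, DNAJA4, DNAJB13, DNAJC5B, HSF5, HSPB2, HSPB6, HSPB7, HSPB8 and PDIA2, none with more than 12 reads in a library, and 3 of them (CCT8L2, DNAJC5B and HSPB7) had no read in any library.

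Molecular chaperones bind proteins that are not yet folded, or have lost their fold, and release them in cycles driven mostly by ATP. Members of the HSP70 family take up client proteins delivered by DNAJ (HSP40) co-chaperones, HSP90 finishes the folding of kinases and receptors, and the ring-shaped chaperonin encloses actin and tubulin while they fold. Separate sets work in the cytosol, the endoplasmic reticulum (ER) and the mitochondria. The cytosolic set is induced by heat shock factor 1, and the ER set by the unfolded protein response through ATF6 and XBP1. Disulfide isomerases, lectin chaperones and prolyl isomerases (the FKBP and cyclophilin families) speed the slow chemical steps of folding.

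All libraries came from MDA-MB-231, an established cell line of triple-negative breast cancer, and the labels name no genetic change. The study set colistimethate at 20 µM against no drug; colistimethate is converted to the antibiotic colistin. The time of exposure is not given in the sources used here. There are 6 libraries, C1, C2 and C3 with K1, K2 and K3, and no label says which letter received the drug. Every difference below is therefore C relative to K, and fold changes are on the log2 scale (log2FC). Whether a letter's 3 libraries were grown apart is not stated, so the p-values rest on a spread that may be technical.

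Depth over the listed genes ran from 31438065 to 35946691 reads per library. The cells expressed the mesenchymal marker AXL, a receptor kinase, at 843 TPM in C and 717 TPM in K (log2FC 0.21, adjusted p = 0.0318), while the epithelial cadherin CDH1 had no read. TPM is the deposited abundance per transcript length. CD44, also chosen as a marker of these cells, was at 256 TPM in C and 230 TPM in K, and the letters overlapped (log2FC 0.16, adjusted p = 0.205 in edgeR). The epithelial marker EPCAM was low but present, at 4.71 TPM in C and 5.47 TPM in K, also overlapping (log2FC -0.21, adjusted p = 0.338 in edgeR). Of 3 listed luminal markers, 2 (ELF3 and GATA3) were lower in C, and their summed level with KRT8 was 257 to 290 CPM (reads scaled to the library total) in C against 272 to 308 in K. Fibroblast markers summed to 7.68 to 9.03 CPM in C and 8.46 to 8.78 in K, endothelial markers to 2.82 to 4.62 and 3.84 to 4.71 CPM, and the endothelial CDH5, the keratinocyte genes KRT5 and KRT14 and the T cell gene CD3E were at 0. Reads from the mitochondrial genome took 3.21 ± 0.0806% of the total in C and 5.41 ± 0.429% in K (SD, n = 3 each). The part of these differences in the results below was not tested, except that the calls were recomputed without the mitochondrial genome, which left the same 7 members past the threshold.

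Promoter sequences are shown first because the best-known regulators of these genes act through short motifs there. Windows reach from 250 bases before to 50 bases after the RefSeq start site on GRCh38.p14, and 70 of the 88 members matched by symbol. The heat shock element consists of GAA and its complement TTC in alternation, with 2 bases of any kind between them. It was searched as 2 units (GAA then TTC, or TTC then GAA) and as 3 units, starting with either. The ER stress element, the site of ATF6, was searched as CCAAT, any 9 bases and CCACG. Both strands were covered, and every 3-unit match contains 2-unit matches. The 3-unit element was in 3 of 70 member windows (CHORDC1, DNAJA1 and HSPA8), or 4.29%, and in 0.487% of all 27305 windows. A 2-unit element was in 15 of 70 (21.4%, against 13.7% of all windows). It was in 13 of 45 cytosolic windows (28.9%) and in 2 of 7 mitochondrial windows (28.6%). Of the windows of tested genes, 9.88% held a 2-unit element and 0.344% a 3-unit element. None of the 12 ER windows held either form. The ER stress element was in 1 member window, that of CALR, and in 0.0806% of all windows. A match is a description of letters in this window and not a bound site. The 4 windows below belong to the inducible HSP70 pair, to the constitutive HSP70 and to calreticulin, with matches in capitals. They lie at chr6:31815293-31815592 on the plus strand (HSPA1A, 2-unit element), chr6:31827488-31827787 on the plus strand (HSPA1B, 2-unit element), chr11:123062087-123062386 on the minus strand (HSPA8, 3-unit elements) and chr19:12938359-12938658 on the plus strand (CALR, ER stress element), and are written 5′ to 3′ along the gene.
HSPA1A: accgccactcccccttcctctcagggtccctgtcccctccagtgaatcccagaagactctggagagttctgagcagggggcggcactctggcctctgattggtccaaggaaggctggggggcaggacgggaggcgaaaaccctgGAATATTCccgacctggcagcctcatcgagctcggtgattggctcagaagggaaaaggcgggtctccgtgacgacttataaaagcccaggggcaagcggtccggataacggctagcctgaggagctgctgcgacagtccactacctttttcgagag
HSPA1B: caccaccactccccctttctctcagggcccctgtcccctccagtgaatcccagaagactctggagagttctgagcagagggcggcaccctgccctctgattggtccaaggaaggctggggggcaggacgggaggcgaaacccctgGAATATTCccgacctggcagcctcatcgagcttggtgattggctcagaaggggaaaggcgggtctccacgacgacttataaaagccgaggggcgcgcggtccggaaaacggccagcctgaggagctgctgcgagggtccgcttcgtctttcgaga
HSPA8: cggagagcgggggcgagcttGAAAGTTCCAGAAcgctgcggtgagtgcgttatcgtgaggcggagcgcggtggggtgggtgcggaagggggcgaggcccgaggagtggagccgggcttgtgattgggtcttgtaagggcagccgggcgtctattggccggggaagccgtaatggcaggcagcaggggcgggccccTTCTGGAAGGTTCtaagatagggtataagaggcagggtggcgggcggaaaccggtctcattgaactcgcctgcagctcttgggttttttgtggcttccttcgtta
CALR: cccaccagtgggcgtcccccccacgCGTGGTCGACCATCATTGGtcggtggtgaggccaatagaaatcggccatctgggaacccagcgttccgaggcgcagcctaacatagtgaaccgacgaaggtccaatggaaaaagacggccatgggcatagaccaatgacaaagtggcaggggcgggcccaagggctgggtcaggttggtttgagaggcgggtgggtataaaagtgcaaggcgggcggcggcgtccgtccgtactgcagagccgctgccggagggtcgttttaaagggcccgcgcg
The HSPA1A and HSPA1B windows were identical at 277 of 299 bases (92.6%) once shifted by 1 base, and their element sat at -106 to -99 and at -105 to -98 from the start site. HSPA8 held its 3-unit elements at -230 to -218 and at -55 to -43. The CALR element lay at -225 to -207. Of the 7 members past the threshold, 6 had a window (PDIA3 did not match), and CCT3, CCT7 and HSP90AB1 held none of these letters in theirs.

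The chaperone and folding genes past an adjusted p of 0.05 in the main test were all higher in C, by small amounts. In edgeR's quasi-likelihood test, adjusted over 9057 genes, 7 of 78 tested members were higher in C, against 2.20% of all tested genes (5.61% were called in either direction). They were HSPA1B, HSPA1A, CCT3, HSP90AB1, CCT7, PDIA3 and CALR, with log2 fold changes between 0.14 and 0.23. No member was lower, against 3.41% of all tested genes; at an unadjusted p below 0.05 in the same edgeR test 8 were lower and 23 higher (14.1% and 12.9% of all tested genes, 27.0% together), and DESeq2 called 14 higher and 2 lower (DNAJC15 and HSPA14), against 5.81% and 5.66% of all tested genes. In CPM, all C libraries lay above all K libraries in 21 members and below in 9, against 16.6% and 17.4% of tested genes. The median log2 fold change of the 78 members was 0.04 (0.00 over all tested genes), and no member reached 2-fold. The count of 7 rested on every library except K2: leaving out C1 or K3 gave 0, C3 or K1 gave 1 (HSPA1B), C2 gave 2 (CCT3 and HSPA1B) and K2 gave 9. Calls over all genes fell in the same fits, from 199 higher to 18 without C1, 26 without K3, 21 without C3, 33 without K1 and 31 without C2, and were 249 without K2. All 7 were among the 14 of DESeq2, while limma on log2(TPM + 1) called 4 higher and 0 lower, without CCT3, PDIA3 and CALR, against 1.67% and 1.78% of its genes. Bulk libraries cannot tell fewer expressing cells from less RNA per cell.

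**Figure D1:**
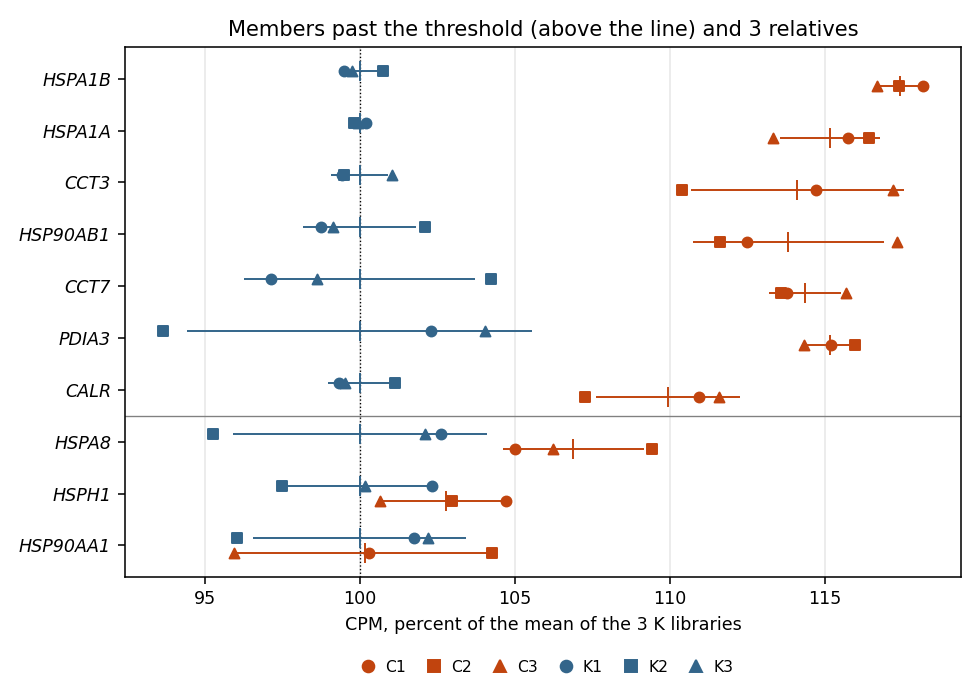
CPM of each library as a percentage of the mean of the 3 K libraries, for the 7 members past the threshold and for HSPA8, HSPH1 and HSP90AA1, which were not; points are libraries, ticks are means and bars SD (n = 3). The C libraries of the 7 members lie above all their K libraries, while those of HSP90AA1 and HSPH1 overlap with K.

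HSP70 binds exposed hydrophobic stretches of client proteins. HSPA1A and HSPA1B, neighbouring genes on chromosome 6, encode its stress-inducible form. HSPA1B (31827735 to 31830255, GRCh38) was at 394, 391 and 389 CPM in C1 to C3 and at 332, 336 and 333 CPM in K1 to K3. The libraries of each letter were thus tightly grouped and the letters did not overlap (log2FC 0.23, SE 0.025, adjusted p = 0.00893 in edgeR). HSPA1A (31815464 to 31817946) was at 231, 232 and 226 CPM in C and at 199.9, 199 and 199 CPM in K, again without overlap (log2FC 0.20, SE 0.027, adjusted p = 0.0175). Of the 75-base windows of their transcripts, 69.3% in HSPA1A and 73.2% in HSPA1B also occur in other genes, mostly in each other, so reads may have been split between them. With both counted as 1 gene the log2 fold change was 0.22 (adjusted p = 0.00819). The HSPA1B call was lost without C1 or K3, and the HSPA1A call without any library except K2; the size of the change stayed between 0.20 and 0.24 in all of these fits.

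HSPA8, the constitutive HSP70 and the most abundant member at 4067 ± 93.1 TPM in C and 3744 ± 209 TPM in K (SD, n = 3), was at 4442, 4629 and 4495 CPM in C and at 4341, 4031 and 4319 CPM in K. Its letters did not overlap, but the difference did not pass (log2FC 0.10, SE 0.035, adjusted p = 0.148). HSPH1, an HSP110 that exchanges nucleotide on HSP70, overlapped between the letters at 625, 615 and 601 CPM in C and 611, 582 and 598 CPM in K (log2FC 0.04, adjusted p = 0.439; 0.12 and 0.048 with GC and length offsets). HSPA4L, a relative of HSPH1, was at 75.7, 81.0 and 76.3 CPM in C and 67.7, 69.3 and 68.6 CPM in K (log2FC 0.18, adjusted p = 0.0521). Its TPM means lay the other way, 9.81 in C and 10.9 in K, with K3 at 15.8 TPM and the letters overlapping, while DESeq2 and the offset fit called it higher. HSPA14, an HSP70 found at the ribosome, pointed the other way at 176, 186 and 172 CPM in C against 201, 195 and 194 CPM in K (log2FC -0.14, adjusted p = 0.0725). Of the 10 tested genes of the HSP70 and HSP110 families, 2 were higher and 0 lower, against 2.20% and 3.41% of all tested genes. A positive fold change was found in 9 of the 10 (in 48.9% of all tested genes), and their median was 0.14.

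HSP90 has a stress-inducible form, HSP90AA1, and a constitutive form, HSP90AB1. HSP90AB1 (chromosome 6, 44246166 to 44253888) was at 5004, 4964 and 5219 CPM in C and at 4392, 4541 and 4409 CPM in K. All C libraries were above all K libraries (log2FC 0.19, SE 0.033, adjusted p = 0.0324), and the call was lost without any library except K2. HSP90AA1 was at 2994, 3112 and 2864 CPM in C and at 3037, 2867 and 3051 CPM in K, with the letters interleaved (log2FC 0.00, SE 0.038, adjusted p = 0.974). The TPM ratio of HSP90AA1 to HSP90AB1 within a library was 0.464, 0.486 and 0.425 in C and 0.535, 0.489 and 0.535 in K. That ratio did not overlap between the letters (0.458 ± 0.0307 against 0.52 ± 0.027, SD, n = 3), with an exact two-sided permutation p of 0.1, the smallest that 3 against 3 allows, and 0.3 after adjustment over 5 gene pairs. The ratios HSPA1A to HSPA1B, HSPA8 to HSPA1A, HSPA8 to HSPH1 and PPIA to PPIB had exact permutation p-values of 0.2, 0.2, 0.3 and 0.3.

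Co-chaperones tie these machines together, and their members did not move as one. STIP1, which bridges HSP70 and HSP90, was at 767, 783 and 789 CPM in C and 732, 704 and 711 CPM in K (log2FC 0.12, adjusted p = 0.0570). ST13, which also links them, lay below in every C library at 244, 241 and 237 CPM against 275, 255 and 259.9 CPM (log2FC -0.13, adjusted p = 0.0967), though 18.2% of its windows also occur in other genes. The TPM values of ST13 overlapped between the letters. BAG3, an HSP70 nucleotide exchange factor of the stress response, was at 533, 550.1 and 540.4 CPM in C and at 541, 484 and 556 CPM in K, and the letters overlapped (adjusted p = 0.681). CHORDC1, an HSP90 partner whose window held 3 overlapping 3-unit heat shock elements, was at 98.7, 103 and 99.0 CPM in C against 122, 102 and 113 CPM in K (log2FC -0.16, adjusted p = 0.168; -0.00 with GC and length offsets). None of the 8 co-chaperones passed in either direction, where 5.61% of all tested genes did. At an unadjusted p below 0.05 in edgeR 2 were higher and 3 lower, against 12.9% and 14.1% of all tested genes. DESeq2 called 1 of the 8, STIP1, higher, against 5.81% of all tested genes.

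No heat shock factor passed the test. HSF1, the master activator of heat shock genes, was at 206, 208 and 195 CPM in C and at 224, 185 and 192 CPM in K, with the letters overlapping (log2FC 0.02, SE 0.075, adjusted p = 0.901; the sign turned to -0.03 without K2 and -0.01 without K3). Its RNA level does not measure its activity. HSF4, the factor of the eye lens, was at 9.03, 8.58 and 6.40 CPM in C and 9.13, 7.79 and 10.3 CPM in K, again overlapping (log2FC -0.18, adjusted p = 0.523). HSF2BP, which binds HSF2 and is no heat shock factor itself, had an adjusted p of 0.914. Some textbook heat shock factor targets, such as HSPB1 and DNAJB1, were not among the members. In a list of those that were, 3 of 11 tested were higher (HSPA1A, HSPA1B and HSP90AB1) and 0 lower. The median was 0.10 and 10 of 11 were positive. Of all tested genes 2.20% were higher, 3.41% lower and 48.9% positive. At 100 TPM or more, 5.57% of all tested genes were higher and 66.5% positive. Reads may have been split between HSPA1A and HSPA1B.

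The DNAJ proteins deliver clients to HSP70 and start its ATP cycle. They had 22 tested members, and none passed in either direction, where 5.61% of all tested genes did. At an unadjusted p below 0.05 in edgeR, 5 were higher and 2 lower, against 12.9% and 14.1% of all tested genes. DESeq2 called DNAJC5 and DNAJB2 higher and DNAJC15 lower, against 5.81% and 5.66% of all tested genes. The median log2 fold change of the 22 was 0.02. DNAJC5, a chaperone of secretory vesicles, had the smallest p, at 609, 599.9 and 651 CPM in C and 505, 553 and 529 CPM in K (log2FC 0.23, SE 0.050, adjusted p = 0.0525). DNAJA1, the most abundant of the family, was at 456, 479.9 and 433 CPM in C and 433, 439 and 438 CPM in K, and the letters overlapped (log2FC 0.06, adjusted p = 0.345; 0.14 and 0.0455 with GC and length offsets). DNAJC25-GNG10 is a readthrough transcript that has 89.7% of its 75-base windows in common with other genes, so its values are uncertain. It was lower in every C library, at 17.6, 17.2 and 16.2 CPM against 18.1, 19.1 and 20.5 CPM (log2FC -0.18, adjusted p = 0.164).

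The cytosolic chaperonin is a double ring built of distinct subunits present in equal number. All 7 subunits listed had a positive fold change in the counts, although that of CCT5 turned to -0.02 on the TPM scale. Of the 7, 2 subunits, CCT3 and CCT7, passed the test, and the median was 0.13. Over all tested genes 48.9% were positive and 2.20% were higher in C. Among all tested genes at 100 TPM or more, a level that all 7 subunits exceeded on average, 66.5% were positive and 5.57% higher. CCT3 (chromosome 1, 156308968 to 156367873) was at 1088, 1047 and 1111 CPM in C and 943, 943 and 958 CPM in K (log2FC 0.19, SE 0.033, adjusted p = 0.0316). CCT7 (chromosome 2, 73234236 to 73253021) was at 833, 832 and 847 CPM in C and 711, 763 and 722 CPM in K (log2FC 0.19, SE 0.035, adjusted p = 0.0356). Neither gene's letters overlapped. The CCT3 call held without C2 or K2 and was lost in the other 4 fits that left out a library. The CCT7 call held without K2 and was lost in the other 5. TCP1, CCT2 and CCT4 also had all C libraries above all K libraries, with log2 fold changes of 0.18, 0.13 and 0.09 and adjusted p of 0.0694, 0.14 and 0.157. For CCT5 and CCT6A the letters overlapped (0.05 and 0.03, adjusted p of 0.544 and 0.647).

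Although the subunits assemble in equal number, their transcript levels differed. Averaged over the 6 libraries, CCT3 was at 714 TPM, CCT5 at 646, CCT7 at 565, CCT4 at 325, CCT2 at 316, CCT6A at 287 and TCP1 at 241 TPM. Neighbours in this order overlapped in their libraries, except that every CCT7 library lay above every CCT4 library and every CCT6A library above every TCP1 library. CCT6B, a testis form, was low, at 1.49 TPM in C and 0.82 TPM in K. Prefoldin, which hands unfolded actin and tubulin to the chaperonin, had no member past the threshold among PFDN2, PFDN5 and PFDN6, with log2 fold changes of 0.02, 0.08 and 0.02. Of all tested genes, 5.61% passed in either direction.

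**Figure D2:**
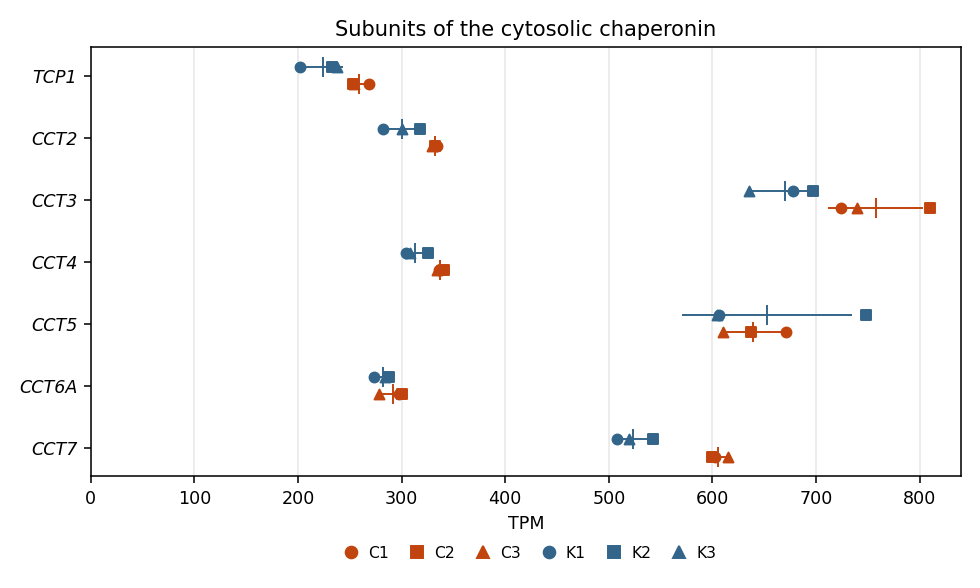
TPM of the 7 listed chaperonin subunits in each library, with the mean (tick) and SD (bar) of each letter (n = 3). CCT3, CCT5 and CCT7 form an upper group above 500 TPM and TCP1 is lowest; the C libraries lie above K for every subunit except CCT5 and CCT6A.

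In the ER, 2 of 15 tested members were higher in C and 0 lower, against 2.20% and 3.41% of all tested genes. At an unadjusted p below 0.05 in edgeR 6 were higher and 0 lower, against 12.9% and 14.1% of all tested genes. CALR, calreticulin, holds glycoproteins by their sugars while they fold. It was at 2077, 2008 and 2089 CPM in C and at 1859, 1893 and 1863 CPM in K (chromosome 19, 12938607 to 12944489; log2FC 0.14, SE 0.029, adjusted p = 0.0497). PDIA3, the disulfide isomerase that works with calreticulin, was at 584, 588 and 579.6 CPM in C and at 519, 475 and 527 CPM in K (chromosome 15, 43746392 to 43773279; log2FC 0.20, SE 0.043, adjusted p = 0.0487). Both letters were separated for both genes, but the calls sat at the edge of the threshold: the CALR call was lost in each of the 6 fits without a library and with limma-voom, and the PDIA3 call without any library except K2. Both were also lost with no filter on low counts (adjusted p of 0.0544 and 0.0548). PDIA3 also overlaps exons on the other strand, and 9.5% of its windows occur in other genes.

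The other ER members did not pass, and of all 15 tested 9 were positive and 6 negative (48.9% of all tested genes were positive). PPIB, cyclophilin B, which folds collagen, was at 481, 474 and 492 CPM in C and 399.6, 442 and 414 CPM in K (log2FC 0.20, SE 0.045, adjusted p = 0.0524; DESeq2 and the fit with GC and length offsets called it). PDIA6, a disulfide isomerase, was at 409, 412 and 419.7 CPM in C and 362, 387 and 378 CPM in K (log2FC 0.14, adjusted p = 0.0712; the same fits called it). HYOU1, the HSP110 of the ER, had the largest ER fold change (0.30, SE 0.13, adjusted p = 0.204) with libraries that overlapped, at 561, 439 and 570.2 CPM in C and 369, 433 and 474 CPM in K (its TPM values did not overlap). The 6 ER prolyl isomerases had a median of -0.04, with FKBP10, FKBP11, FKBP14 and PPIC negative, and the 4 ER DNAJ genes one of 0.00. Some textbook ATF6 and XBP1 targets, such as HSP90B1, CANX and DNAJB9, were not among the members. In a list of those that were, 2 of 6 tested were higher (CALR and PDIA3) and 0 lower. The median was 0.17 and 5 of 6 were positive. Of all tested genes 2.20% were higher, 3.41% lower and 48.9% positive. At 100 TPM or more, 5.57% of all tested genes were higher and 66.5% positive. For comparison, HSPA5, the main ER HSP70 and outside the set, was at 1382, 1361 and 1382 CPM in C against 1097, 1117 and 1102 CPM in K (log2FC 0.31, adjusted p = 0.00287), and PDIA4 had a log2 fold change of 0.15 (adjusted p = 0.0261).

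The 7 mitochondrial members did not pass in either direction, where 5.61% of all tested genes did. HSPA9, the HSP70 of the matrix, was at 673, 635 and 676 CPM in C and at 644, 650.1 and 637 CPM in K, with overlapping letters (log2FC 0.04, SE 0.036, adjusted p = 0.535). DNAJC15, a DNAJ of the inner membrane, was lower in every C library at 54.7, 57.6 and 59.6 CPM against 65.8, 64.8 and 64.5 CPM (log2FC -0.18, adjusted p = 0.0714). DNAJC11 was higher in each C library in CPM (log2FC 0.10, adjusted p = 0.155). Its TPM values overlapped, with means of 68.4 in C and 68.3 in K. DNAJC15 and DNAJC11 were the 2 of 7 past an unadjusted p of 0.05 in edgeR, against 27.0% of all tested genes. DESeq2 called DNAJC15 lower, as it did 5.66% of all tested genes.

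By compartment, the median log2 fold change was 0.06 for 49 cytosolic and nuclear members, 0.08 for 15 ER members and 0.01 for 7 mitochondrial members, beside 0.00 over all tested genes. Of the cytosolic members 37 of 49 were positive and 5 passed, of the ER members 9 of 15 and 2, and of the mitochondrial members 4 of 7 and 0. Over all tested genes 48.9% were positive, 2.20% were called higher and 3.41% lower. With so few members and no test of the difference, no compartment is shown to differ from another. The ER median was 0.04 without C2 and 0.11 without C3 or without K3, and the cytosolic one stayed between 0.05 and 0.06 whichever library was left out. Folding genes outside the set, from a list of further co-chaperones and enzymes, gave 0 of 12 cytosolic, 3 of 9 ER and 0 of 7 mitochondrial members higher and none lower, with medians of 0.06, 0.13 and 0.02. The 3 were HSPA5, PDIA4 and SDF2L1, beside 2.20% higher and 3.41% lower over all tested genes. HSPA5 and PDIA4 are outside the set because its rule left them out. The list was chosen with earlier results of these data known, so its counts are no independent support.

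**Figure D3:**
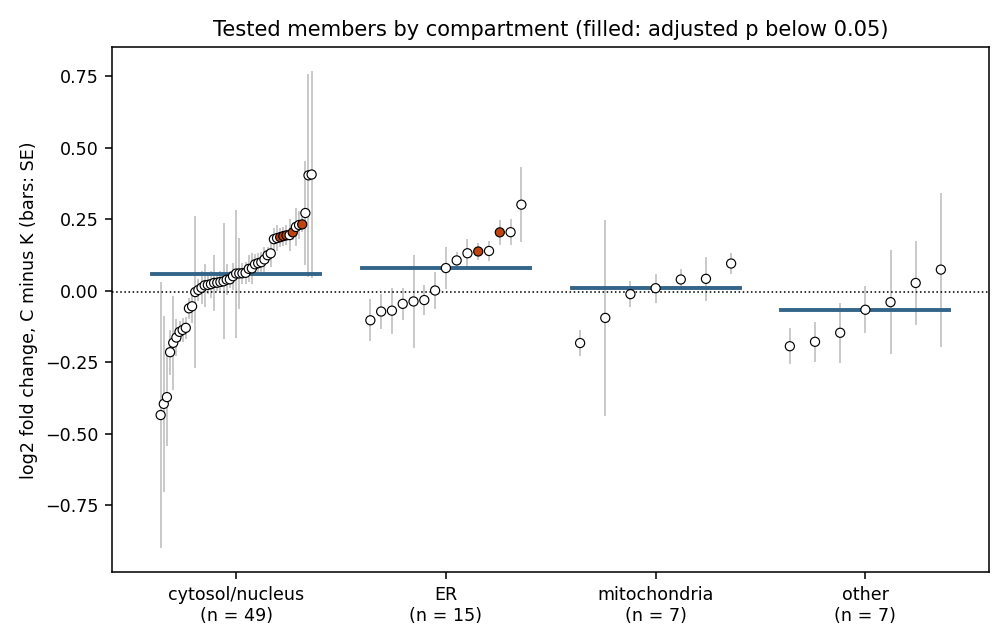
Log2 fold change (C minus K) of the 78 tested members by main location, each with its SE; filled points passed an adjusted p of 0.05, blue lines are medians and the dotted line is the median of all tested genes. The 7 filled points lie in the cytosol and ER columns, and the mitochondrial column is centred on 0.01.

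The 7 called members were all abundant. Among members at 100 TPM or more, 7 of 35 were higher in C and 31 of 35 (88.6%) had a positive fold change. Over all tested genes at that level, 5.57% were higher in C and 66.5% were positive, with a median of 0.05 against 0.10 for the members. None of the 43 members below 100 TPM passed, a count near the background: 2.33% of all tested genes between 10 and 100 TPM and 0.637% of those below 10 TPM were higher in C. Of the 28 between 10 and 100 TPM 13 were positive (46.4%, against 50.9% of all tested genes in that range). GC content also went with the direction: genes called higher in C had a median of 53.9% GC and those called lower 46.4%, with 51.3% for the 7 called members and 48.2% for all tested genes. With GC and length offsets in the fit, 14 members were higher and 0 lower, against 3.61% and 2.88% of all genes in that fit, so calls moved towards higher in C over the whole table (327 higher and 261 lower, from 199 and 309). The 14 were the 7 with DNAJA1, DNAJC5, HSPA4L, HSPH1, PDIA6, PPIB and TCP1.

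**Figure D4:**
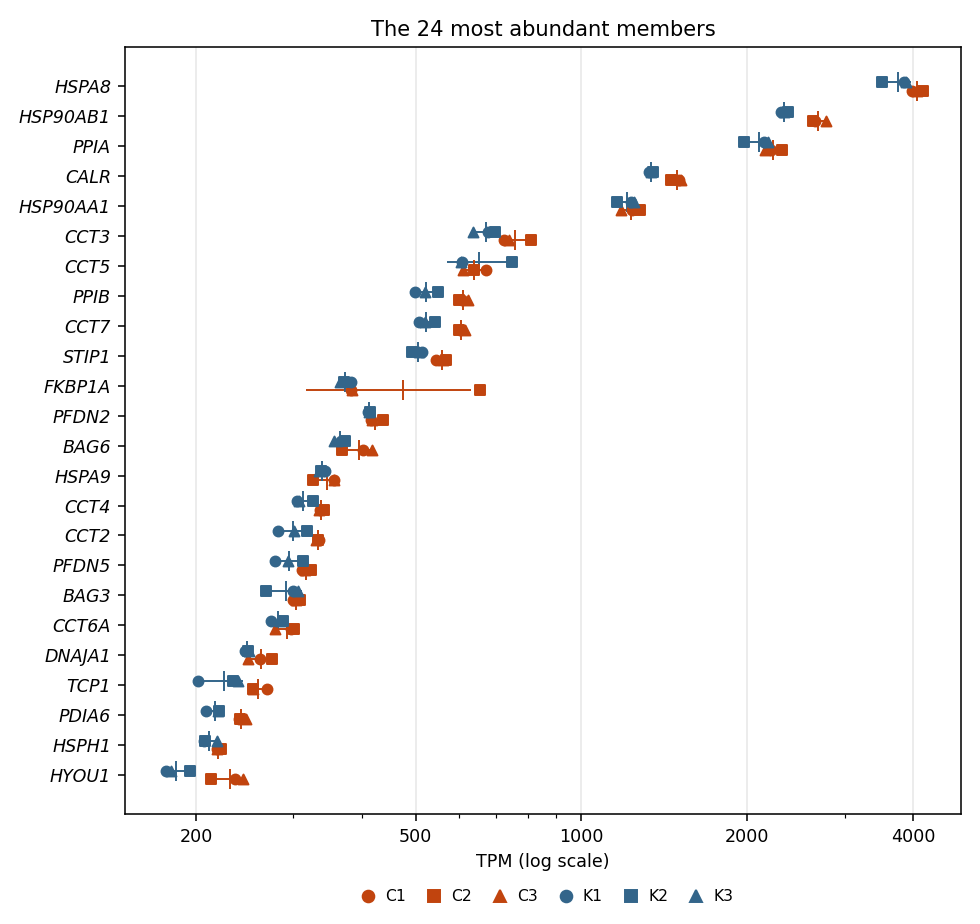
TPM of the 24 most abundant tested members in each library on a log axis, with mean and SD per letter (n = 3). HSPA8, HSP90AB1, PPIA, CALR and HSP90AA1 lie above 1000 TPM, and FKBP1A has 1 C library far from the other 2.

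Reads of the 88 members summed to 32864, 33219 and 32925 CPM in C and to 30593, 30752 and 30881 CPM in K, 7.35% more in C. With mitochondrial-genome reads left out of the total the difference was 4.91%, the mitochondrial share being lower in C. HSP90AB1 made up 27.2% of the net difference, HSPA8 12.9% and CALR 8.23%, and these with CCT3 and CCT7 58.9%.

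PPIA, cyclophilin A and the most abundant prolyl isomerase, was at 1996, 2071 and 1974 CPM in C and 1922, 1997 and 2007 CPM in K (log2FC 0.03, SE 0.029, adjusted p = 0.574). None of the 14 tested prolyl isomerases passed, where 5.61% of all tested genes did. At an unadjusted p below 0.05 in edgeR 2 were higher and 0 lower, against 12.9% and 14.1% of all tested genes. DESeq2 called 1 of the 14, PPIB, higher, against 5.81% of all tested genes. The small heat shock proteins, which hold unfolded proteins without ATP, were low among the 5 genes listed: HSPB9, with means of 0.292 (C) and 0.388 (K) CPM, was the one tested and did not pass (adjusted p = 0.481). HSPBAP1, which binds a small heat shock protein and is not one itself, was lower in every C library, at 24.5, 23.0 and 23.9 CPM against 26.7, 28.9 and 26.1 CPM, and did not pass (log2FC -0.19, adjusted p = 0.119).

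Most members varied little inside a letter, with a median ratio of the highest to the lowest library of 1.11. Of the 63 tested members at 10 TPM or more, 5 had a ratio of at least 1.5. None of these passed the test, though a spread that wide itself makes a call unlikely. The ratio was not computed over all tested genes. FKBP5, a co-chaperone of the glucocorticoid receptor, was at 101, 54.5 and 103 CPM in C and 51.2, 96.8 and 47.1 CPM in K, so C2, K1 and K3 were low and C1, C3 and K2 high. BAG1, which docks HSP70 to the proteasome, was high in C1 and K2 (54.3 and 57.0 CPM) and between 32.4 and 37.2 CPM elsewhere. FKBP1A, the prolyl isomerase bound by FK506, was at 689 CPM in C2 and between 416 and 439 CPM in the other 5. DNAJB5 was at 7.26 CPM in C2 and between 27.2 and 30.6 CPM elsewhere, and PPIG was lowest in C3 at 40.3 CPM and highest in K3 at 78.7 CPM.

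**Figure D5:**
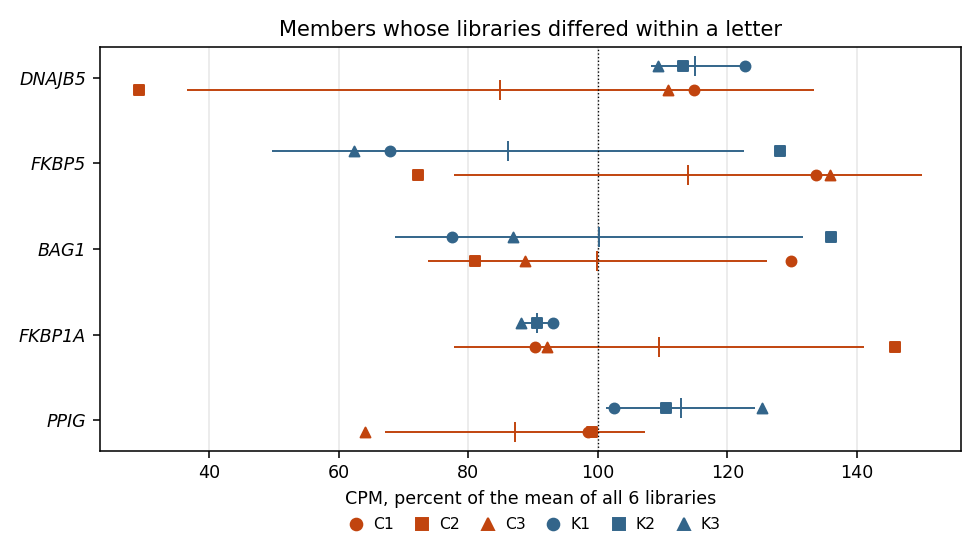
CPM of each library as a percentage of the mean of all 6, for the 5 members at 10 TPM or more whose highest library in a letter was at least 1.5 times the lowest, with mean and SD per letter (n = 3). FKBP1A and DNAJB5 each depend on C2, while FKBP5 and BAG1 split both letters.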

How the data were processed

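Messenger RNA libraries of MDA-MB-231 cells, 3 titled C and 3 titled K, were analysed from 1 deposited table of raw counts per gene beside TPM and FPKM, per the file headers. Tools listed in the submitters' processing notes are HISAT2 2.1.0, StringTie 1.3.3b, FastQC 0.11.2 and Trimmomatic, with the build GRCh38. Which program counted reads, and whether by strand, is not given in the sources used here. The table held 13707 complete genes and 1 incomplete row. Deposited TPM add up to 67.1% to 67.9% of a complete library, so CPM here are relative to listed reads. FPKM was not used.

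The main test on counts was edgeR 4.0.16 under R 4.3.3 (filterByExpr at 10 reads and 15 in total, TMM, quasi-likelihood test, no covariate, Benjamini-Hochberg over 9057 genes, threshold 0.05). The standard error (SE) is the log2 fold change divided by the square root of F. The steps were also run on simulated counts, with less spread than these libraries and larger fold changes than those of the called members. The simulation therefore does not measure how reliable those calls are. Limma 3.58.1 on log2(TPM + 1) or log2(TPM + 0.1), for genes at a mean of at least 1 TPM, and DESeq2 1.42.0 were alternatives. Shared 75-base windows, GC content and exon overlaps came from GENCODE release 29. Values are given for members past the threshold, the most abundant and smallest-p member of each family, chaperonin subunits and fixed partner pairs; other members named were chosen after their values were seen. Members and lists were chosen with earlier results of these data known.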

Additional observations from a re-analysis of the deposited data

How the results depend on the processing

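The count of 7 members higher in C became 0 with the replicate number as a block and 14 with DESeq2 or with the GC and length offset, 4 with limma on log2(TPM + 1) or log2(TPM + 0.1), and between 0 and 9 when each library was left out. Over all genes the calls higher and lower were 199 and 309 in the main test, 526 and 513 with DESeq2, 327 and 261 with the offset, 135 and 144 with log2(TPM + 1), 127 and 138 with log2(TPM + 0.1), and 18 to 249 higher without 1 library. The count of 0 members lower became 2 with DESeq2 and stayed at 0 in each fit without 1 library (0 to 0). The block calls 4 genes higher and 21 lower among all tested genes. Whether the replicate numbers pair the libraries is not known. Same-numbered libraries deviated with correlations of -0.0891, 0.0323 and -0.00432, and C1, C2 and C3 correlated best with K3, K1 and K1. With 3 libraries per letter and no test, these values cannot decide it. The cytosolic median of 0.06 was 0.0467 with the replicate block, 0.0491 with limma-voom and 0.103 with the GC and length offset, and 0.0454 to 0.063 without 1 library. The ER median of 0.0792 was 0.141 and 0.144 with limma on log2(TPM + 1) and log2(TPM + 0.1), and 0.0352 to 0.107 without 1 library. The mitochondrial median of 0.00872 was 0.0345 with the offset and 0.0120 to 0.0398 without 1 library. The cause of these moves was not tested. Signs turned for CCT5 with limma on TPM (-0.0233 with either pseudocount), for HSP90AA1 at a mean of at least 50 counts (-0.000256), for HSPA4L with limma on TPM (-0.0895 and -0.093), for HSF2BP there too (0.0147 and 0.0249), and for BAG1, from -0.00478 (0.00898 with the replicate block, 0.000101 with DESeq2 size factors, 0.000645 with DESeq2, 0.0114 and 0.0117 with limma on TPM, 0.000773 with the offset). Without 1 library they turned for HSP90AA1 (-0.0252 to 0.0281), HSF1 (-0.0339 to 0.106), BAG3 (-0.0191 to 0.0782), HSF2BP (-0.154 to 0.14), PFDN2 (-0.000266 to 0.0337), PFDN6 (-0.0103 to 0.0454) and BAG1 (-0.239 to 0.282). Over 47 genes given with values, HSPA5 and PDIA4 included, 689 alternative values kept direction and side of the threshold, 55 lost the call, 25 gained it and 26 turned sign. The offset moved the median of all genes most, by 0.0351. Depth was alike in all libraries; the called changes were at most 0.23 on the log2 scale, beside a coefficient of variation between libraries of 13.2% over all tested genes.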
